A study of Mus musculus with 8 samples.

Results

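The genes described here code for peptides, and for 1 peptide receptor, through which the hypothalamus governs feeding, arousal and the pituitary. They are 9 genes chosen by symbol: the 8 peptide precursor genes Pmch, Hcrt, Gal, Trh, Agrp, Pomc, Cartpt and Ghrh, and the galanin receptor gene Galr1. A row of the array table carried the symbol of 8 of the 9, with 1 row per gene, out of 19505 genes named in the table. Agrp had no row under its symbol and was not analysed here. The measured genes are thus 7 precursors and 1 receptor.

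RNA came from brains of male ICR mice, an outbred strain, bought at 8 weeks of age and acclimatized for 1 week, and each RNA sample was hybridised to its own Clariom S array. The 8 arrays fell into 4 groups of 2. In the first, mice received drinking water and underwent the tail suspension test (TST), a short inescapable stress that hangs the animal by the tail and records how long it stays still. In the next 2 groups, mice received rosemary extract (RE) in the drinking water and underwent TST. The low dose was 10 mg/kg. Titles give 100 mg/kg for the high dose and source names give 50 mg/kg, so no amount is attached to it below. The last group received water without TST. Treatment lasted 7 days in all groups, and no genotype or allele distinguished them. A label field names water with TST the negative control and water without TST the positive control, while the groups here follow the titles. The labels assign 7 mice to each group and do not say whether an RNA sample is 1 mouse or a pool, so the p-values measure the spread between RNA samples, which may be technical. The tissue is labelled limbic system and, elsewhere in the labels, hippocampus.

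Most of these peptides are made by small, separate groups of hypothalamic neurons. Melanin-concentrating hormone, from Pmch, and the orexins, from Hcrt, are made by neighbouring neurons of the lateral hypothalamus; orexins sustain wakefulness, and melanin-concentrating hormone promotes feeding and sleep. In the arcuate nucleus, Pomc and Cartpt neurons restrain feeding, and Ghrh neurons drive release of growth hormone from the pituitary. Trh encodes thyrotropin-releasing hormone, which starts the thyroid axis from the paraventricular nucleus, and Gal encodes galanin, made in several hypothalamic nuclei and in the locus coeruleus. Cartpt is also expressed well outside the hypothalamus, and Galr1 is found in the thalamus, amygdala and brainstem as well as in the hypothalamus. A dissection that takes in a little more or less hypothalamus can therefore carry very different amounts of these transcripts.

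The promoters of 4 of the precursor genes are shown because their transcripts followed different courses across the arrays: Pmch, Trh and Cartpt were highest on the same array, and Pomc on another. The sequences are RefSeq's, build GRCm38.p6, each from 250 bases before to 50 after the annotated start. Pmch lies at chr10:88090822-88091121 on the plus strand, Trh at chr6:92244601-92244900 on the minus strand, Cartpt at chr13:99900634-99900933 on the minus strand and Pomc at chr12:3954695-3954994 on the plus strand. Capitals mark matches, on either strand, to TATAA, the core of the TATA box, to TGACG, and to TGACGTCA, the cAMP response element, which holds TGACG on both strands.
Pmch: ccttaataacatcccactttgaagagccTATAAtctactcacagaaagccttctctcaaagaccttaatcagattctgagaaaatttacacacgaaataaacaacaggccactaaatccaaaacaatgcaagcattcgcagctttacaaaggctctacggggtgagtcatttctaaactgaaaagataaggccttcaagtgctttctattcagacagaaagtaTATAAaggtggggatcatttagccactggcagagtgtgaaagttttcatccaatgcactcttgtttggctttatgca
Trh: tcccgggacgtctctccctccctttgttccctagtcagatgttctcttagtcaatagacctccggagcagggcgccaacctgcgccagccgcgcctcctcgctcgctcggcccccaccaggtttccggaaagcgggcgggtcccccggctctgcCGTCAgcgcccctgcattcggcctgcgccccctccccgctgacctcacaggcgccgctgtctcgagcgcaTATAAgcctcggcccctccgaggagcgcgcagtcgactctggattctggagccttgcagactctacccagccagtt
Cartpt: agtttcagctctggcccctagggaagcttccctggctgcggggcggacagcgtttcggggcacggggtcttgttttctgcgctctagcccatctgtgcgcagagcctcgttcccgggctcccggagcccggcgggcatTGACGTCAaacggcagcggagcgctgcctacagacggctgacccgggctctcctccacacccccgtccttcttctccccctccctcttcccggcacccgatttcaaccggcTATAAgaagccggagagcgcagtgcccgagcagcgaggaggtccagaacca
Pomc: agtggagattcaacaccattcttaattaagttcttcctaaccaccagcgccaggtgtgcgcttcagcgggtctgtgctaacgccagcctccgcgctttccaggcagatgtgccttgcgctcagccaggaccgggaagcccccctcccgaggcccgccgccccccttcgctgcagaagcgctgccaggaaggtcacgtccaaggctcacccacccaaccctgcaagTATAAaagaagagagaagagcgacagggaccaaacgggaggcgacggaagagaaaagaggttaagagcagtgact
All 4 held TATAA, starting 27 bases before the annotated start in Pmch, 26 in Trh, 25 in Pomc and 1 in Cartpt, with a further match 222 bases before it in Pmch. Of 32851 promoter windows of this length, 24.9% held TATAA. Cartpt held the full TGACGTCA, 112 bases before its start, as did 1.79% of all windows. Trh held TGACG 96 bases before its start, a motif found in 20.8% of all windows. These matches describe letters in the windows and were not related to the arrays.

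Some facts of the whole table bear on every value below. The deposited values are log2 expression after robust multichip average (RMA) normalization, array medians lay between 7.45 and 7.51, and no detection call comes with them. Values run up to 19.79, above the limit of a 16-bit scanner, so differences keep the deposited log2 scale and are not turned into folds of RNA here. Replicate 2 of water with TST was unlike the rest: its correlations with the others across rows lay between 0.967 and 0.978, against 0.983 to 0.993 among the other 7. All 10 measured cerebellar markers were highest on it, with a mean 5.13 above the 8-array mean, and the 11 measured markers of hippocampal and cortical excitatory neurons, which belong to the labelled tissue, averaged -1.75 on it against -0.331 to 0.56 on the other arrays. Water without TST replicate 1 carried the next highest cerebellar mean, 2.97. Water without TST replicate 2 was highest in all 9 measured markers of striatal projection neurons, with a mean of 1.82. Where a result turns on one of these arrays, its value without that array is given beside it.

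Pmch varied most. Its log2 level was 8.92 and 6.93 in water with TST, 8.47 and 8.70 in low-dose RE with TST, 10.32 and 9.78 in high-dose RE with TST, and 6.80 and 11.81 in water without TST. The highest and the lowest of the 8 values thus came from the pair without TST, 5.01 log2 units apart. Both high-dose arrays lay above both arrays of the other TST groups, and only water without TST replicate 2 was higher. In bulk RNA, fewer cells of a type and less RNA per cell cannot be told apart.

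Hcrt, the orexin precursor gene, had log2 levels of 6.13 and 6.09 in water with TST, 5.53 and 6.72 in low-dose RE with TST, 7.02 and 6.29 in high-dose RE with TST, and 5.55 and 6.98 in water without TST. High-dose RE replicate 1 and water without TST replicate 2 were the highest, 0.04 apart, and the low-dose pair and the pair without TST each straddled the values of water with TST. Over the 8 arrays the Pearson correlation of Hcrt with Pmch was 0.762, and 0.679 over the 7 arrays other than water without TST replicate 2. Such correlations describe 8 arrays that were normalized together and differ in tissue markers.

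Trh stood at 6.52 and 6.34 in water with TST, 6.12 and 6.38 in low-dose RE with TST, 6.48 and 6.35 in high-dose RE with TST, and 5.82 and 8.57 in water without TST. Water without TST replicate 2 exceeded the next array by 2.05 log2 units, while the other 7 arrays spanned 0.70. Only 57 of 22206 rows, 0.257%, had a highest array as far above its next.

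Gal had log2 levels of 4.39 and 4.51 in water with TST, 3.92 and 4.96 in low-dose RE with TST, 4.68 and 4.53 in high-dose RE with TST, and 4.61 and 6.07 in water without TST. It too was highest on water without TST replicate 2, by 1.11 over the next array. Its correlation with Trh was 0.877 over 8 arrays and 0.216 without that array.

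Cartpt, the precursor gene of the cocaine- and amphetamine-regulated transcript peptides, had log2 levels of 8.18 and 8.09 in water with TST, 8.57 and 8.19 in low-dose RE with TST, 9.52 and 9.23 in high-dose RE with TST, and 8.56 and 9.81 in water without TST. Both high-dose arrays were above all 4 arrays of the other TST groups, and water without TST replicate 2 was the highest of all, by 0.29. Its correlation with Pmch was 0.829 over 8 arrays and 0.70 without water without TST replicate 2.

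Pomc, whose precursor yields melanocortins and beta-endorphin, had log2 levels of 6.06 and 8.05 in water with TST, 6.08 and 6.67 in low-dose RE with TST, 6.33 and 6.29 in high-dose RE with TST, and 6.62 and 6.65 in water without TST. It was highest on water with TST replicate 2, by 1.38 over the next array, and lowest on the other array of that group. Pomc is also a major transcript of the pituitary. Of 8 measured anterior pituitary markers, 7 lay above their own 8-array mean on water with TST replicate 2, with a list mean of 0.557 there and between -0.225 and 0.164 on the other arrays. Among them, the common glycoprotein hormone subunit gene Cga was at 6.72 on water with TST replicate 2 and at most 5.37 elsewhere, and growth hormone, Gh, at 7.41 and at most 6.47 elsewhere, while Tbx19, a regulator of pituitary Pomc cells, was at 5.29 there and between 4.89 and 5.58 elsewhere. Prolactin, Prl, was highest on high-dose RE replicate 1, at 6.03. The part of pituitary, cerebellar or other tissue in the Pomc value was not tested.

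Ghrh hardly varied: 6.07 and 6.25 in water with TST, 6.13 and 6.61 in low-dose RE with TST, 6.35 and 6.24 in high-dose RE with TST, and 6.02 and 6.09 in water without TST. The whole range was 0.59 log2 units, and the low-dose pair overlapped every other group that had TST.

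Galr1, the receptor gene, followed none of the precursors closely. Its log2 level was 6.38 and 6.54 in water with TST, 6.70 and 7.60 in low-dose RE with TST, 7.35 and 6.98 in high-dose RE with TST, and 8.05 and 7.57 in water without TST. Both arrays of water with TST were the lowest of the 8, and the 2 RE groups lay between them and water without TST, except that the higher low-dose array just exceeded the lower array without TST. Galr1 was highest on water without TST replicate 1, not on replicate 2 where Pmch, Trh, Gal and Cartpt peaked, and its correlation with Gal, the precursor of its ligand, was 0.522 over the 8 arrays.

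**Figure D1:**
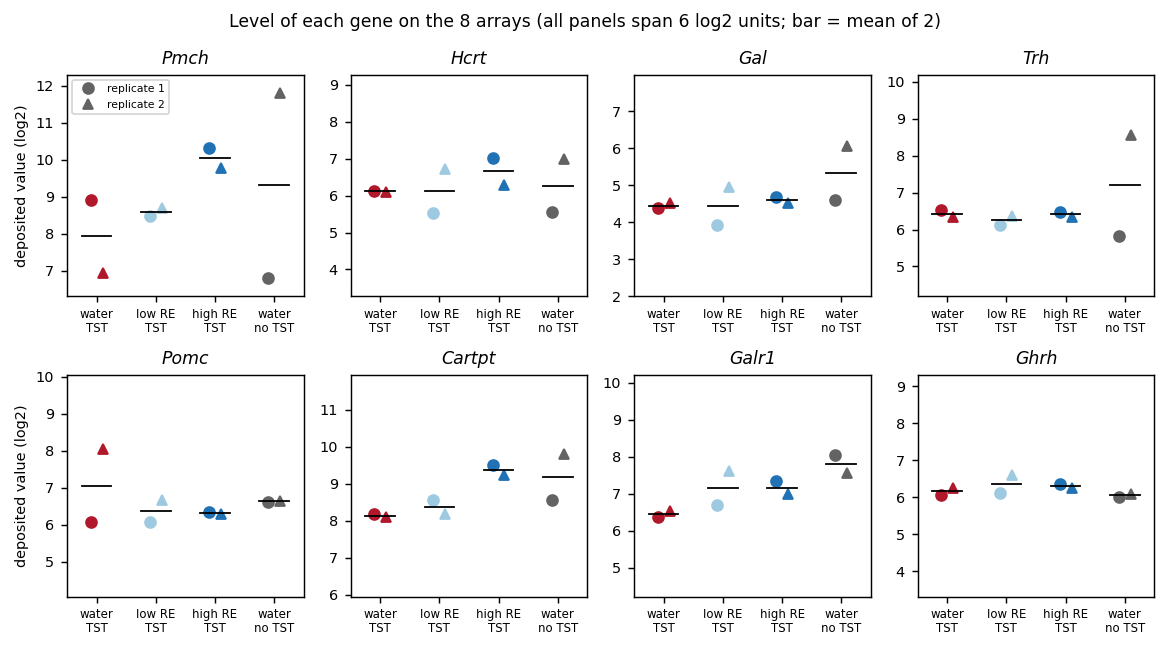
Deposited log2 values (vertical axis; every panel spans 6 log2 units) of the 8 measured genes on the 8 arrays, by group along the horizontal axis; circles are replicate 1, triangles replicate 2 and bars the mean of 2. Pmch and Trh split the pair without TST (6.80 and 11.81, and 5.82 and 8.57), Pomc splits the pair of water with TST (6.06 and 8.05), and Galr1 is lowest on both arrays of water with TST (6.38 and 6.54).

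Set side by side, the genes did not all mark the same array. Hcrt was highest on high-dose RE replicate 1, Pomc on water with TST replicate 2, Galr1 on water without TST replicate 1 and Ghrh on low-dose RE replicate 2. On water without TST replicate 2, 7 of 8 genes lay above their own 8-array mean, and 4, Pmch, Gal, Trh and Cartpt, were at their highest. Across the table, 10.3% of rows were highest on that array. For 3 of the 8, Pmch, Gal and Trh, the lead over the next array was at least 1 log2 unit, which held for 36 of 22206 rows, 0.162%. Pomc led by as much on water with TST replicate 2, as did 357 rows, 1.61%. The 2 arrays without TST differed by over 1 log2 unit in 5 of 8 genes, Pmch, Hcrt, Gal, Trh and Cartpt, and in 3.27% of rows; the high-dose pair did so in 0 of 8 and 1.62% of rows. The mean of the 8 genes was 1.04 above the 8-array mean on water without TST replicate 2 and 0.348 above it on high-dose RE replicate 1, while the other 6 arrays ranged from -0.468 to 0.0706. Leaving out any 1 of the 8 genes kept water without TST replicate 2 the highest, at 0.777 (without Pmch) to 1.20 (without Ghrh). The lowest was low-dose RE replicate 1, at -0.468 with 0 genes above their own mean, followed by water without TST replicate 1, at -0.404 with 2. Both arrays of water with TST came next, at -0.327 and -0.308, with 0 and 2 genes above their own mean. The second of that pair stood at -0.56 without Pomc.

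Other genes showed how far the difference of water without TST replicate 2 reached into other hypothalamic transcripts. Of 15 measured hypothalamic transcription factor genes, 8 were highest on water without TST replicate 2 and 13 lay above their own mean there, with a list mean of 0.302 against -0.0759 to 0.0234 on the other 7. Nhlh2, the widest-ranging of this list, went the other way, at 7.76 there, 9.47 on water with TST replicate 2 and at most 7.91 elsewhere. Sim1, needed to form paraventricular neurons, was at 6.16 on water without TST replicate 2, 5.91 on high-dose RE replicate 1 and at most 5.19 elsewhere. Of 9 other measured hypothalamic neuron markers, 6 were highest on it, with a mean of 0.816 and a next highest mean of 0.235 on high-dose RE replicate 1. Ecel1, an endopeptidase gene, stood at 10.21 there and at most 8.56 elsewhere, and the orphan receptor gene Gpr101 at 8.01 and at most 6.71. Nkx2-1, a defining regulator of the ventral hypothalamus, was at 4.64 there and between 4.10 and 4.66 elsewhere. Its row was not raised there, but how far values so low stand above background is unknown. Some transcription factors highest on that array led by little, such as Hmx3, at 5.18 there and at most 5.14 elsewhere. Other hypothalamic peptide genes were less uniform: of 13 measured, 4 were highest on water without TST replicate 2, with a mean of 0.359, and 5 on water with TST replicate 2. Of all rows, 10.3% were highest on the former array and 23.6% on the latter. Avp, the vasopressin gene, was at 7.88 on replicate 2 of water with TST, 8.60 on replicate 2 of water without TST and at most 6.47 elsewhere. Of 5 measured markers of tanycytes, the glia that line the third ventricle, 1 was highest on water without TST replicate 2, at a list mean of 0.336, with Gpr50 at 7.84 there and at most 6.82 elsewhere. Frzb, the widest-ranging tanycyte marker, was at 9.86 on that array, 10.29 on low-dose RE replicate 1 and 7.24 on water with TST replicate 2.

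Lists for neighbouring regions also differed on the same array. Striatal markers shared the peak on water without TST replicate 2, with Drd2, the dopamine D2 receptor gene, at 10.86 there and at most 8.94 elsewhere. A list of midbrain and hindbrain markers, mostly of monoamine neurons, averaged 0.983 on water with TST replicate 2 and 0.402 on water without TST replicate 2. On water with TST replicate 2, 4 of its 8 measured genes were highest, as were 23.6% of all rows. The widest-ranging of them, the glycine transporter gene Slc6a5, was at 10.11 there and at most 6.90 elsewhere. The dopamine transporter gene Slc6a3 was at 8.58 on high-dose RE replicate 1, 8.19 and 7.38 on the arrays without TST and at most 6.49 elsewhere. The 11 thalamic markers were not high on water without TST replicate 2, at a mean of -0.282, and were highest on low-dose RE replicate 1, at 0.875. In the group comparisons, 4 of 9 striatal markers passed the threshold with TST, all lower, where 2.55% of all rows passed. Their median was -1.43. It was -0.525 without water without TST replicate 2 and -0.635 without water with TST replicate 2. Thalamic markers passed in 7 of 11 with low-dose RE and 5 of 11 with high-dose RE, against 3.54% and 3.17% of all rows. All of these were higher than in water with TST. Their list medians, 1.33 and 1.19, were 0.65 and 0.40 without water with TST replicate 2. Hippocampal and cortical markers passed in 2 of 11 with TST, both higher, although the list's median was -0.945. Without water with TST replicate 2 that median was 0.865. Cerebellar markers passed in 0 of 10 in each of the 4 comparisons by limma. With TST their median was 0.755, but without water with TST replicate 2 it was -2.52. With both arrays that stood apart omitted, which leaves 1 array in each water group, it was -4.54 and 10 of 10 were lower. Of the midbrain and hindbrain list, 1 of 8 passed with TST, Slc6a3, at -1.72, against 2.55% of all rows. Slc6a3 did not pass without water without TST replicate 2. The part of dissection in the levels of the feeding and arousal genes was not tested.

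**Figure D2:**
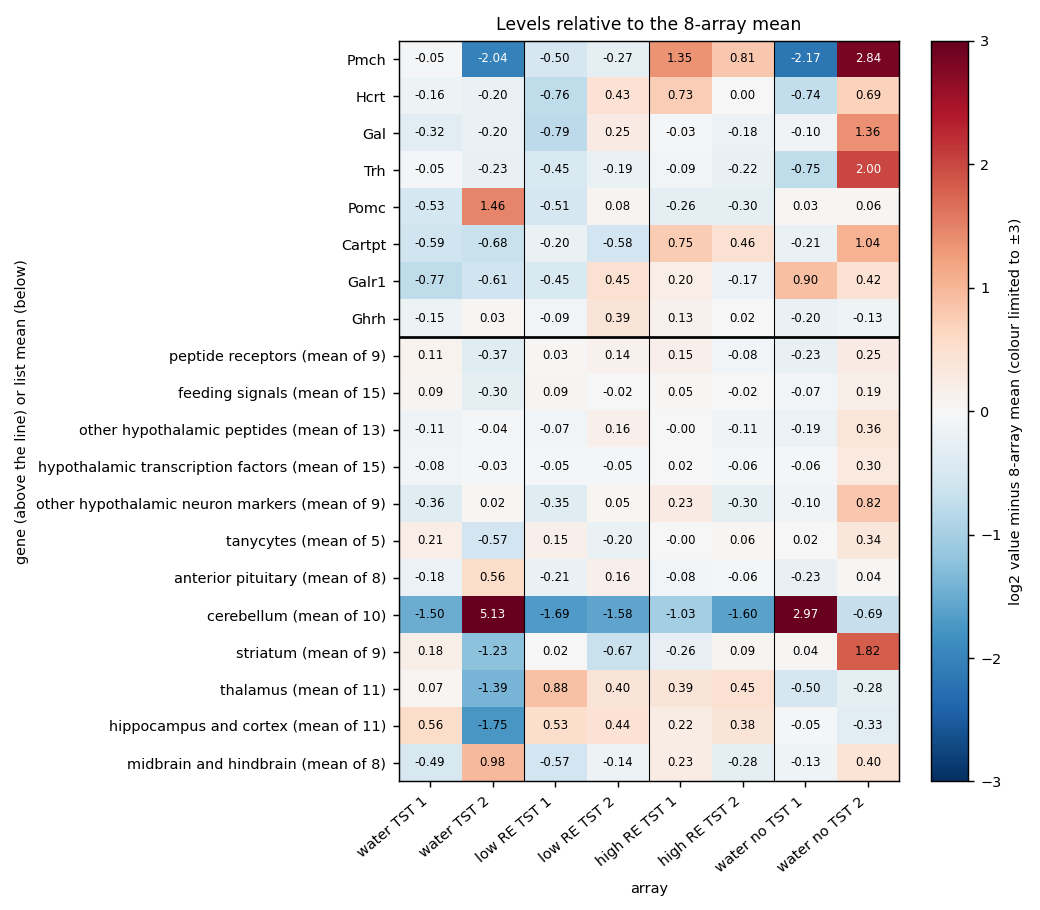
Log2 value minus the 8-array mean (colour, with the number printed in each cell) for the 8 genes, above the line, and for the mean of each list of other genes, below it, on each array (columns). The rightmost column, water without TST replicate 2, holds the highest value of Pmch (2.84), Trh (2.00), Gal (1.36) and Cartpt (1.04) and the highest striatal mean (1.82); the second column, water with TST replicate 2, holds the highest Pomc value (1.46) and the cerebellar mean of 5.13.

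The first comparison, water with TST against water without TST, asked what the stressor changed in mice given water. Of the 8 genes, 6 were lower with TST, as were 49.2% of rows, with a median log2 difference of -0.828, where the median of all rows was 0.005. That direction turned on 1 array: without water without TST replicate 2, 3 of 8 were lower and the median was 0.288, and with both arrays that stood apart omitted 4 of 8 were lower and the median was -0.085. Galr1 and Cartpt passed the study's threshold, a fold above 1.2, or 0.263 in log2, together with an unadjusted p under 0.05, both lower, against 2.55% of all rows called in either direction and 1.26% called lower. The groups did not overlap for 3 of 8, Gal, Cartpt and Galr1, all lower, as for 13.3% of rows. Galr1 averaged 6.46 ± 0.113 in water with TST and 7.81 ± 0.339 in water without TST (SD, n = 2 each), a difference of -1.35 (SE 0.341, limma adjusted p = 0.997). It stayed past the threshold in all 16 alternative analyses, at -1.67 to -1.11, with adjusted p between 0.176 and 1.0. Cartpt averaged 8.135 ± 0.0636 with TST and 9.185 ± 0.884 without (SD, n = 2 each), a difference of -1.05 (SE 0.390, limma adjusted p = 0.997). That difference was -0.425, and not past the threshold, without water without TST replicate 2. With either array of water with TST left out it was also not past the threshold, at -1.095 and -1.005. Pmch, at -1.38 (95% interval -4.47 to 1.71), Trh, at -0.765 (-2.40 to 0.86), and Gal, at -0.89 (-2.01 to 0.23), had intervals that took in 0. Without water without TST replicate 2 the differences were 1.125 for Pmch, 0.61 for Trh and -0.16 for Gal. Without water without TST replicate 1 they were -3.885, -2.14 and -1.62. Hcrt was at -0.155 (-1.38 to 1.07), Pomc at 0.42 (-0.84 to 1.68) and Ghrh at 0.105 (-0.46 to 0.67). Without water with TST replicate 2, the Pomc difference was -0.575 and did not pass. By limma, 0 of 22206 rows passed an adjusted p of 0.05 here, 567 had an unadjusted p under 0.05, and the methods' analysis of variance also gave 0 after adjustment.

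The second comparison set low-dose RE with TST against water with TST and asked what the extract changed under the stressor. None of the 8 genes passed the threshold, by limma or by the methods' analysis of variance, where 3.54% of rows did by limma. Their median log2 difference was 0.112, with 5 higher and 3 lower, and 47.5% of rows were lower. Cartpt and Galr1, 2 of 8, were higher without overlap, as were 13.1% of rows. Galr1 averaged 7.15 ± 0.636 with low-dose RE and 6.46 ± 0.113 in water with TST (SD, n = 2 each), a difference of 0.69 with a 95% interval of -0.09 to 1.47. For Cartpt the difference was 0.245 (-0.65 to 1.14), and the closest arrays of the 2 groups were at 8.19 and 8.18. Those of Pmch (0.66, -2.43 to 3.75), Hcrt (0.015, -1.21 to 1.24), Gal (-0.01, -1.13 to 1.11), Trh (-0.18, -1.81 to 1.45), Pomc (-0.68, -1.94 to 0.58) and Ghrh (0.21, -0.35 to 0.77) lay within wide intervals, so changes of 1 log2 unit in most of them were not detectable with 2 arrays per group. Omitting the array on which Pomc peaked turned its low-dose difference to 0.315, which did not pass.

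The third comparison set high-dose RE with TST against the same water arrays. Cartpt was higher at the high dose: it averaged 9.375 ± 0.205, against 8.135 ± 0.0636 in water with TST (SD, n = 2 each), a difference of 1.24 (SE 0.390, 95% interval 0.35 to 2.13, limma adjusted p = 0.973). It was the 1 gene of 8 past the threshold, where 3.17% of rows passed in either direction and 1.67% upward. Left-out arrays moved it between 1.095 and 1.385, and it missed the threshold in 1 of 16 alternatives, without high-dose RE replicate 1 (1.095). It was as large, at 1.195, without water with TST replicate 2, the array with the cerebellar markers. Pmch averaged 10.05 ± 0.382 at the high dose and 7.925 ± 1.41 in water with TST (SD, n = 2 each). Its difference of 2.125 (95% interval -0.96 to 5.21) did not pass, and its standard error, 1.35, draws on the spread of all 4 pairs. Without either array of water without TST it passed, at an unadjusted p of 0.0087 in the limma fit and an adjusted p of 0.995, but the difference shrank to 1.13, below the threshold, when the cerebellar-rich array of water with TST was omitted; with both arrays that stood apart omitted, 1.13 passed. In all, 5 of 8 genes, Pmch, Hcrt, Gal, Cartpt and Galr1, were higher without overlap, as were 15.3% of rows, and 2 of 8 were lower, as were 48.1% of rows. Gal separated by the least, with its closest arrays at 4.53 and 4.51. The median of the 8 differences was 0.35, against 0.01 for all rows. Galr1 was at 0.705 (-0.08 to 1.48), close to its low-dose value, and Hcrt at 0.545 (-0.68 to 1.77). Gal (0.155, -0.97 to 1.28), Trh (-0.015, -1.64 to 1.62), Ghrh (0.135, -0.43 to 0.70) and Pomc (-0.745, -2.01 to 0.52) did not pass, and Pomc was at 0.25 with the array of its peak omitted. The low-dose, high-dose and stressor comparisons share the arrays of water with TST, so their values are not independent of each other.

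The doses were compared directly with each other, which leaves the water arrays out of the means. Cartpt was higher at the high dose than at the low dose, at 9.375 ± 0.205 against 8.38 ± 0.269 (SD, n = 2 each), a difference of 0.995 (SE 0.390, 95% interval 0.10 to 1.89, limma adjusted p = 1.0), and 1.91% of all rows passed the threshold, 0.946% upward. It no longer passed without either high-dose array (0.85 and 1.14) or without low-dose RE replicate 2 (0.805). Pmch differed by 1.465 (95% interval -1.62 to 4.55), with both high-dose arrays above both low-dose arrays; a fit of only these 4 arrays put it past the threshold with an unadjusted limma p of 0.00115 and an adjusted p of 0.998. These 2 genes were the ones higher without overlap, as were 12.9% of rows, and 2 of 8 were lower, as were 50.3% of rows. Galr1, at 0.015 (-0.76 to 0.80), and Ghrh, at -0.075 (-0.64 to 0.49), differed by less than their error, as did Gal (0.165), Trh (0.165), Hcrt (0.53) and Pomc (-0.065).

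Asked whether a gene differed anywhere among the 4 groups, the moderated F-test of limma gave an unadjusted p of 0.0323 for Cartpt and 0.0258 for Galr1, with adjusted p = 1.0 for both. These 2 of 8 were under 0.05, against 1.82% of all rows. Ordered by group means, Cartpt ran from high-dose RE (9.375) through water without TST (9.185) and low-dose RE (8.38) to water with TST (8.135). The one neighbouring pair that did not overlap was low-dose RE and water with TST, whose closest arrays were at 8.19 and 8.18. Galr1 ran from water without TST (7.81) through high-dose RE (7.165) and low-dose RE (7.15) to water with TST (6.46), where high-dose RE and low-dose RE overlapped and the other neighbours did not. In Pmch, high-dose RE (10.05) was followed by water without TST (9.305), low-dose RE (8.585) and water with TST (7.925), and every neighbouring pair overlapped.

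**Figure D3:**
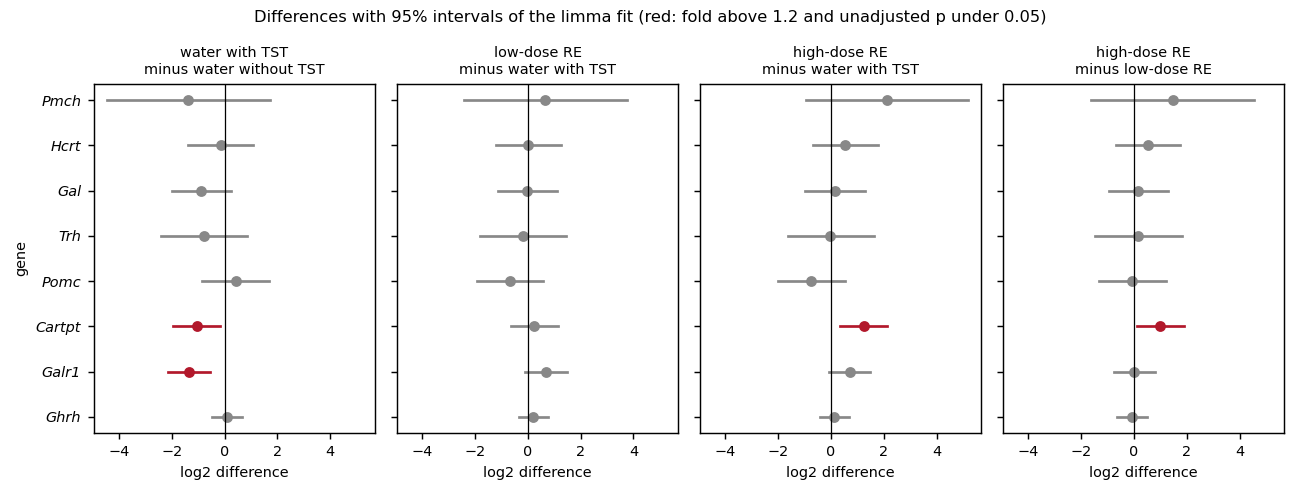
Log2 differences (points, horizontal axis) with 95% intervals of the limma fit (lines) for the 8 genes (rows) in the 4 comparisons (panels), with n = 2 arrays per group. Red marks a fold above 1.2 with unadjusted p under 0.05: Cartpt and Galr1 are lower with TST (-1.05 and -1.35), and Cartpt is higher at the high dose than in water with TST (1.24) or at the low dose (0.995).

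**Figure D4:**
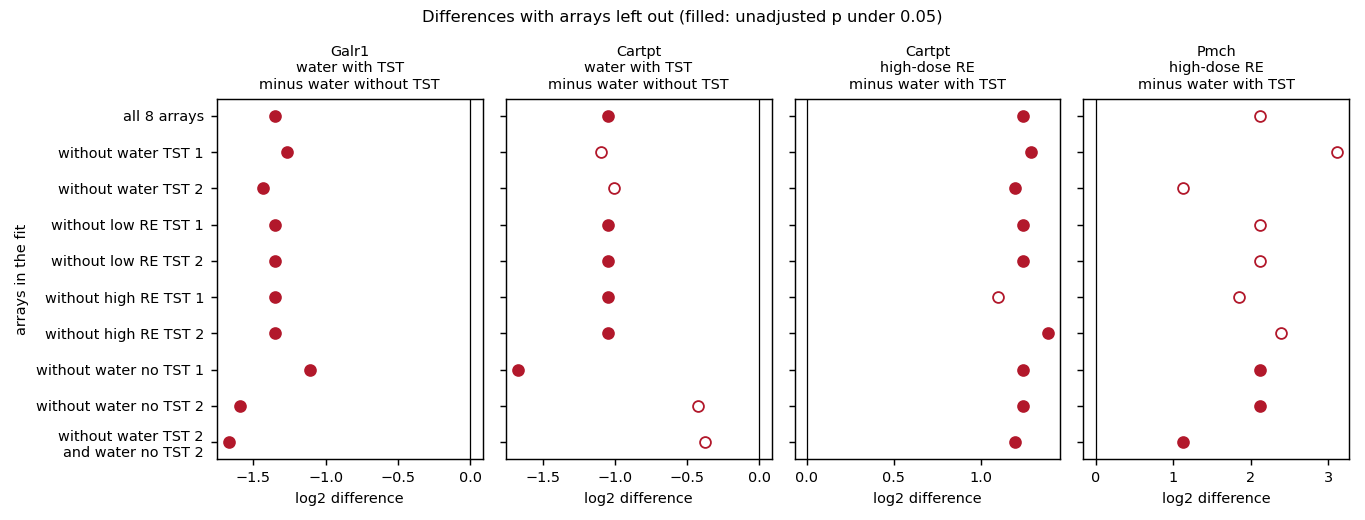
Log2 difference (horizontal axis) of Galr1, Cartpt and Pmch in the comparison named above each panel, from fits with all 8 arrays, without each array, and without replicate 2 of both water groups (rows); filled points have an unadjusted p under 0.05. Galr1 stays between -1.67 and -1.11, Cartpt shrinks to -0.425 with TST when water without TST replicate 2 is left out, and Pmch at the high dose spans 1.13 to 3.12.

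The receptors through which these peptides act were measured for 9 of 10 listed genes besides Galr1. With TST 0 of 9 passed the threshold by limma, and 7 of 9 were lower (median -0.13). Without water without TST replicate 2, 3 of 9 were lower and the median was 0.115. With low-dose RE, 2 of 9 passed, both higher than in water with TST. Mc4r, the melanocortin receptor through which Pomc products restrain feeding, had log2 levels of 7.21 and 7.15 with low-dose RE, against 6.47 and 5.84 in water with TST, a difference of 1.025 (SE 0.308, limma adjusted p = 0.946). It was also higher with high-dose RE, at 7.33 and 6.90, a difference of 0.96 from the same water arrays (SE 0.308, limma adjusted p = 0.973). Without water with TST replicate 2 these differences were 0.71 and 0.645, and neither passed. Hcrtr2, the orexin receptor whose loss causes narcolepsy in dogs, had 8.18 and 7.95 with low-dose RE and 7.31 and 7.62 in water with TST, a difference of 0.60 that held the threshold in 1 of 8 fits with an array left out. The high dose lay below the low dose in Hcrtr2, at 7.23 and 7.61, a difference of -0.645. The thyrotropin-releasing hormone receptor gene Trhr varied most, from 5.96 on high-dose RE replicate 2 to 8.28 on water without TST replicate 2. Mchr1, the receptor for melanin-concentrating hormone, was lowest on water with TST replicate 2, at 5.58, and lay between 6.60 and 7.48 elsewhere. Ghrhr, the receptor for the Ghrh peptide, ranged from 5.02 to 6.48, and its highest and lowest arrays were both low-dose RE.

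Feeding signals beyond these peptides were represented by 15 measured genes for leptin, ghrelin, insulin, neuropeptide Y, endocannabinoid and serotonin signalling. With TST 0 of 15 passed, 8 being higher and 7 lower (median 0.04). Npy2r, a presynaptic neuropeptide Y receptor, was past the threshold with low-dose RE, at 8.35 and 8.90 against 8.02 and 6.87 in water with TST, a difference of 1.18, which dropped below the threshold at 0.605 once water with TST replicate 2 was left out. Cnr1, the cannabinoid receptor gene, was lower with high-dose RE than in water with TST, by -1.16, and at -0.33 without that array, on which it stood at 14.79. Between doses, the ghrelin receptor gene Ghsr was higher at the high dose (6.62 and 6.13, against 5.28 and 5.58 at the low dose, difference 0.945, SE 0.341). Sh2b1, an adaptor of leptin signalling, was lower (7.50 and 7.66, against 9.02 and 8.11, difference -0.985, SE 0.328). Both passed the threshold, as did 1.91% of all rows, and by limma 0 of 22206 rows passed an adjusted p of 0.05 between doses. Npy1r and Htr2c did not pass in any comparison, and Npy1r was at 7.63 on water with TST replicate 2 and between 10.53 and 11.13 elsewhere. The leptin receptor gene Lepr ranged from 6.41 to 7.42 and did not pass either.

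Of the other hypothalamic lists, 1 of 13 peptide genes passed with TST: Crh, at -0.73, and -0.34 without water without TST replicate 2. Hypothalamic transcription factors were lower with TST in 12 of 15 (median -0.155), 1 of them, Six3, past the threshold at -0.955. Without water without TST replicate 2 they were lower in 8 of 15, and Six3 was at -0.505. Other hypothalamic neuron markers were lower in 9 of 9 (median -0.42), with Ecel1 past it at -1.375. Without water without TST replicate 2 they were lower in 7 of 9, with a median of -0.045 and Ecel1 at -0.395. That array is the one on which Pmch, Gal, Trh and Cartpt peaked. With RE, Six3 was past the threshold at the high dose (0.905), Lhx9 at both doses (0.88 and 0.775) and Rax, a tanycyte and retinal regulator, lower at the low dose (-0.59). Without water with TST replicate 2, Lhx9 was at 0.53 and 0.425, Six3 at 0.47 and Rax at -0.565, and none passed. Anterior pituitary markers had 0 of 8 past the threshold in each of the 4 comparisons by limma, with 7 of 8 higher with TST (median 0.323) and 5 of 8 without water with TST replicate 2 (median 0.045).

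The transcripts whose course over the 8 arrays was most like the mean of the 8 genes were found among 9201 rows with 1 symbol and a standard deviation of at least 0.3. The closest were Glb1l2 (Pearson r 0.965), Scg2 (0.945), Pax8 (0.93), Fam240b (0.929), Olfr161 (0.924), Zfp738 (0.914), 4921513I03Rik (0.909), Mylpf (0.908), Gm44 (0.90) and Peg10 (0.90). Scg2 encodes a granin of secretory granules and Peg10 an imprinted, retrotransposon-derived protein. These were all of the rows at r of at least 0.9, 0.109% of those searched. For single genes, the closest rows included Tcl1b4 (0.976) and Nucb2 (0.94), the nesfatin precursor gene, for Pmch; Pld6 (0.965) for Hcrt; Gm44 (0.978) for Gal; Mylpf (0.963) for Trh; Gm12695 (0.974) for Cartpt; Miip (0.944) for Galr1; Myh15 (0.978) for Ghrh; and Abhd14b (0.987) and A2m (0.986) for Pomc. Pomc had 179 rows at r of at least 0.9, against 5 for Galr1 and 16 for Pmch. With 8 arrays, and with Trh and Gal peaking on one of them and Pomc on another, such likeness is a description of these arrays.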

How the data were processed

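Clariom S arrays were hybridised with 8 brain RNA samples, 1 per array. Per the design text and the submitters' processing notes, the authors normalized the arrays by RMA in Transcriptome Analysis Console 4.0.1 and deposited log2 values with 2 decimals, which were kept as deposited. No genome build was needed for the levels. The table had 22206 rows, of which 19572 had 1 gene symbol, 0 several and 2634 none here; all 19572 matched the gene table by identifier. A gene with several rows was represented by the row with the highest mean. Groups and replicate numbers came from the titles.

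A linear model of group means over all 8 arrays was fitted to all rows with limma 3.58.1 (lmFit, eBayes) in R 4.3.3, with 4 residual and 4.30 prior degrees of freedom, two-sided tests and Benjamini-Hochberg adjustment over all rows. Precision is limited by the number of arrays, with a median standard error per difference of 0.292 across rows. The code was tested on simulated data. The members and lists were chosen with earlier results of these data known. All members were named whatever their values; other lists gave counts, the genes of widest range and those past the study's threshold. The widely ranging genes of the hypothalamic lists and of the lists that mark other regions are given in part. Alternatives are named in the closing section.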

Additional observations from a re-analysis of the deposited data

How the results depend on the processing

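The number of the 8 genes past the study's threshold was recomputed with a replicate block, with a trended and robust variance prior, on only the groups compared, without the dimmest 25% of rows (which removed Gal), after quantile normalization, with each array left out, without both arrays that stood apart (replicate 2 of each water group), with the mean of a gene's rows, and by the methods' one-way analysis of variance. With 1 array left out, its group's remaining array was assumed to vary like the other groups. Over such fits, 1.64% to 16.7% of all rows passed with TST, and 2.23% to 17.0% at the low dose. At the high dose 1.59% to 17.0% of all rows passed, and between doses 1.11% to 5.33%. In the F-test, 0.968% to 12.6% had an unadjusted p under 0.05. Without water without TST replicate 1, these shares were 2.29% with TST and 1.3% in the F-test. Over the fits with 1 array left out, the count ran from 1 to 5 with TST, against 2 with all arrays, from 0 to 1 at the low dose, against 0, from 0 to 2 at the high dose and between doses, against 1 each, and from 1 to 4 in the F-test, against 2. The 5 came without water without TST replicate 1, when Pmch, Gal, Trh, Cartpt and Galr1 passed. With only the groups compared, 1 gene passed with TST, 3 at the high dose and 2 between doses, against 1.59%, 2.22% and 2.39% of all rows. The analysis of variance gave 1 with TST, and its 1 gene between doses was Pmch in place of Cartpt, against 2.72% and 2.52% of all rows. Without both arrays that stood apart, each water group was its replicate 1 alone, and water without TST replicate 1 held the lowest Pmch value, 6.80. The difference of Pmch with TST was then 2.12, against -1.38 with all arrays and -3.885 without water without TST replicate 1. Galr1 stayed lower. Without water with TST replicate 1, Pomc passed in each comparison with water with TST, at 1.415 with TST, -1.675 at the low dose and -1.74 at the high dose, in fits where 16.7% to 17.0% of all rows passed. The causes were not tested. Of 508 differences of single genes under alternatives, 477 kept their side of the threshold. Most fell short of it with all arrays, and a change of sign short of it was counted as keeping its side. Pmch with TST, for example, went from -1.38 to 1.125 without water without TST replicate 2. The replicate block left all 5 counts as they were, at 2, 0, 1, 1 and 2. The numbers were not taken to pair arrays: deviations of same-numbered arrays correlated at -0.293 to 0.169 between groups. Counts in the other lists without either or both arrays were added after seeing the data. No detection call comes with the values, so how far low values such as those of Gal stand above background is unknown.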
